A study of Homo sapiens with 96 samples.

Results

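The samples described here are 12 total RNA libraries from U2-OS cells after Bmal1 knockdown: the 6 from the last hours of the sampled day (CT18, CT20 and CT22, called late) set against the 6 from its first hours (CT00, CT02 and CT04, called early). They were chosen by sample label alone, 12 of the 96 libraries in the series. U2-OS is a human osteosarcoma line, and these cells carry a luciferase gene behind the Per2 promoter. Late and early knockdown cells alike had been seeded at 0.56 M per plate (M, mega), had received 120 pmol per plate of a mix of 5 siRNAs against Bmal1 (ARNTL in the files), had been synchronised with 0.1 µM dexamethasone, and were treated with 100 µg/mL cycloheximide at collection. Collection began 24.5 h after synchronisation and went on every 2 h, so the middle of the late window lay 18 h after the middle of the early one. Each time was sampled in series 1 and in series 2, which gives 3 times by 2 series in each window. Used beside them are the knockdown footprint libraries (mRNA fragments protected by ribosomes) of the same windows, 6 late and 6 early, and the wild-type total RNA libraries, 6 late and 6 early, from cells that received dexamethasone and cycloheximide but no siRNA and were seeded at 2.25 M per plate. The labels name no control siRNA, so knockdown, transfection and seeding density cannot be told apart.

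BMAL1 is the activating partner of CLOCK, and the pair drives E-box genes, among them the PER and CRY repressors that feed back on it and the nuclear receptors NR1D1 and NR1D2. Proliferating cells pass through S phase, when DNA and histones are made, and through G2 and mitosis. E2F factors are known to drive genes of the first step, and complexes that bind the CHR element are known to hold mitotic genes low in resting cells and in G1. A day of culture after plating and synchronisation also changes density, nutrients and the matrix that cells lay down. With 1 day sampled, a steady drift over that day and a daily rhythm cannot be told apart, and in bulk RNA fewer cells of a type and less RNA per cell cannot be told apart.

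The late library of series 2 at CT18 held 2.56 M reads and the other 11 libraries 13.6 to 19.3 M. Its expression profile had a median correlation of 0.973 with the other late libraries across genes, and the other 11 had 0.994 to 0.996 with their own window, so the main counts are also given without it. Footprint libraries held 2.60 to 4.10 M reads in both windows and wild-type total RNA libraries 14.6 to 17.6 M. ARNTL, the siRNA target, had 4.04 to 6.57 counts per M reads (CPM) late and 3.83 to 5.38 CPM early in knockdown cells, against 43.3 to 47.9 CPM late and 23.4 to 45.0 CPM early in wild-type cells, so every knockdown library lay below every wild-type one. Of the 6 markers of the line's mesenchymal origin, VIM, SPARC and COL1A1 had at least 976 reads in every library and COL1A2 had 0 to 3 reads late and 0 to 5 early. The blood markers CD14 and PTPRC had at most 7 reads, while CD68, a lysosomal protein that is not confined to blood cells, had 36 to 231 reads late and 207 to 276 early. The 4 epithelial markers summed to 10.1 to 14.2 CPM late and 7.63 to 9.91 CPM early. The 3 neuronal markers (SNAP25, SYT1 and RBFOX3) summed to 13.2 to 20.4 CPM late and 11.7 to 13.5 CPM early, and 1 of them, SYT1, was higher late with no overlap. The muscle markers summed to 0.417 to 1.24 CPM late and 0.677 to 1.61 CPM early, with MYH1 at 0 to 1 reads, and the endothelial ones to 0.714 to 1.18 CPM late and 0.493 to 1.03 CPM early. The part of these cells' markers in the results was not tested.

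Late and early knockdown cells differed mostly by small steps in many genes, and the gene lists with medians farthest below 0 were those of cell division. Of 13058 genes tested, 3867 (29.6%) passed an adjusted p of 0.05 in limma, 1878 (14.4%) higher late and 1989 (15.2%) lower late. Only 31 of the higher and 19 of the lower genes differed by 2-fold or more, and the middle 95% of all log2 changes ran from -0.55 to 0.56. In 2087 genes (16%) the 6 late libraries did not overlap the 6 early ones, 886 (6.79%) with late higher and 1201 (9.2%) with late lower. Without the shallow CT18 library 4902 of 13141 genes passed (37.3%; 2472 higher, 18.8%, and 2430 lower, 18.5%), and 3789 of the 3867 were called in the same direction. The log2 changes computed within series 1 and within series 2 correlated at r = 0.70 across 12976 genes, which share libraries within a series and are not independent. Of 2046 genes that were called and did not overlap, 1960 had a mean over the 6 times between the windows that lay between the early and the late mean. These genes were picked for windows that lie apart, and the share over all genes was not computed. The count therefore does not tell a steady course from another.

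Genes for the histones packed onto newly made DNA were lower late in 12 of the 12 tested, beside 15.2% of all genes. Their median log2 change was -0.91 where the median over all genes was 0.01. HIST1H2BJ, an H2B gene, had a median of 329 CPM in the late libraries (range 251 to 351) and 701 CPM in the early ones (612 to 818), a log2 change of -1.17 ± 0.08 (± SE throughout, n = 6 libraries each; adjusted p = 1.31e-07). HIST1H2AG, an H2A gene and the most abundant of those named, had 528 CPM late (388 to 617) against 1022 CPM early (866 to 1178), a change of -1.01 ± 0.10. In both the highest late library lay well below the lowest early one. In 11 of the 12 genes the windows did not overlap, beside 9.2% of all genes lower with no overlap. The H3 genes HIST1H3H and HIST1H3D changed by -1.04 ± 0.09 and -0.95 ± 0.10. Outside the list, HIST1H2AD (-1.27 ± 0.14), HIST1H2AH (-1.1 ± 0.09) and HIST1H2BN (-1.03 ± 0.08) were also among the 12 largest falls. Those 12 were ranked among genes whose windows did not overlap. The list median was -0.93 in series 1 and -0.89 in series 2. Histone genes are near-identical to each other, so how reads were split between them is uncertain, and their mRNAs mostly lack poly(A) tails, which a total RNA kit does not require.

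Of 42 genes that copy DNA in S phase, 39 fell and none rose, with a median of -0.59, beside 15.2% of all genes lower. With the shallow library left out 41 fell, beside 18.5% of all genes. EXO1, a nuclease of replication and mismatch repair, had a median of 46.5 CPM in the late libraries (range 40.4 to 52) and 95.5 CPM in the early ones (88.2 to 102), a change of -1.03 ± 0.07 (adjusted p = 2.08e-08). MCM10, which helps to start forks, had 57.6 CPM late (52.6 to 63.1) against 112 CPM early (99.9 to 118), a change of -0.94 ± 0.05 (adjusted p = 4.63e-09). CDC6, which loads the MCM helicase at origins, had 73.9 CPM late (69.9 to 81.2) against 145 CPM early (129.8 to 155), a change of -0.93 ± 0.05. CDC45, part of the moving helicase, changed by -0.93 ± 0.07. The windows did not overlap for any of these 4, nor for 36 of the 42, beside 9.2% of all genes lower with no overlap. TYMS, which makes thymidine nucleotides, and the ligase LIG1 were among the 3 that did not pass, at -0.09 ± 0.05 and -0.04 ± 0.06. Among the 12 largest falls, ESCO2, which acetylates cohesin during S phase, had 26.1 CPM late (22.3 to 29.3) against 57.7 CPM early (53.6 to 61.7) (-1.15 ± 0.07, adjusted p = 6.91e-09), and the zinc finger gene ZNF367 had 26.8 CPM late (24.3 to 29.1) against 58.2 CPM early (50.3 to 64) (-1.1 ± 0.06).

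Among 53 genes of G2 and mitosis 43 fell and none rose, with a median of -0.52, beside 15.2% of all genes lower. CDK1, the kinase that starts mitosis, had a median of 122 CPM in the late libraries (range 111 to 143) and 240.4 CPM in the early ones (208 to 269), a change of -0.95 ± 0.07 (adjusted p = 5.86e-08). NDC80, a kinetochore protein, had 76.1 CPM late (73.4 to 92.8) against 144 CPM early (128 to 160.1) (-0.83 ± 0.06). HMMR, a spindle-associated hyaluronan receptor, had 28.2 CPM late (27.8 to 30.8) against 50.8 CPM early (41.3 to 61.8) (-0.80 ± 0.08), and the chromatin protein HMGB2 had 83.6 CPM late (77.2 to 96.3) against 143 CPM early (128 to 157) (-0.75 ± 0.06). None of the 4 overlapped between windows, and 31 of the 53 did not, beside 9.2% of all genes lower with no overlap. The 10 that did not pass, listed after their values were seen, were MKI67, FOXM1, KIF20A, CDC20, PLK1, CCNB2, CKS2, BIRC5, PTTG1 and CDC25B, at log2 changes such as -0.27 for CDC20, -0.24 for PLK1 and 0.01 for CDC25B. Without the shallow library 51 of 53 fell, beside 18.5% of all genes.

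**Figure D1:**
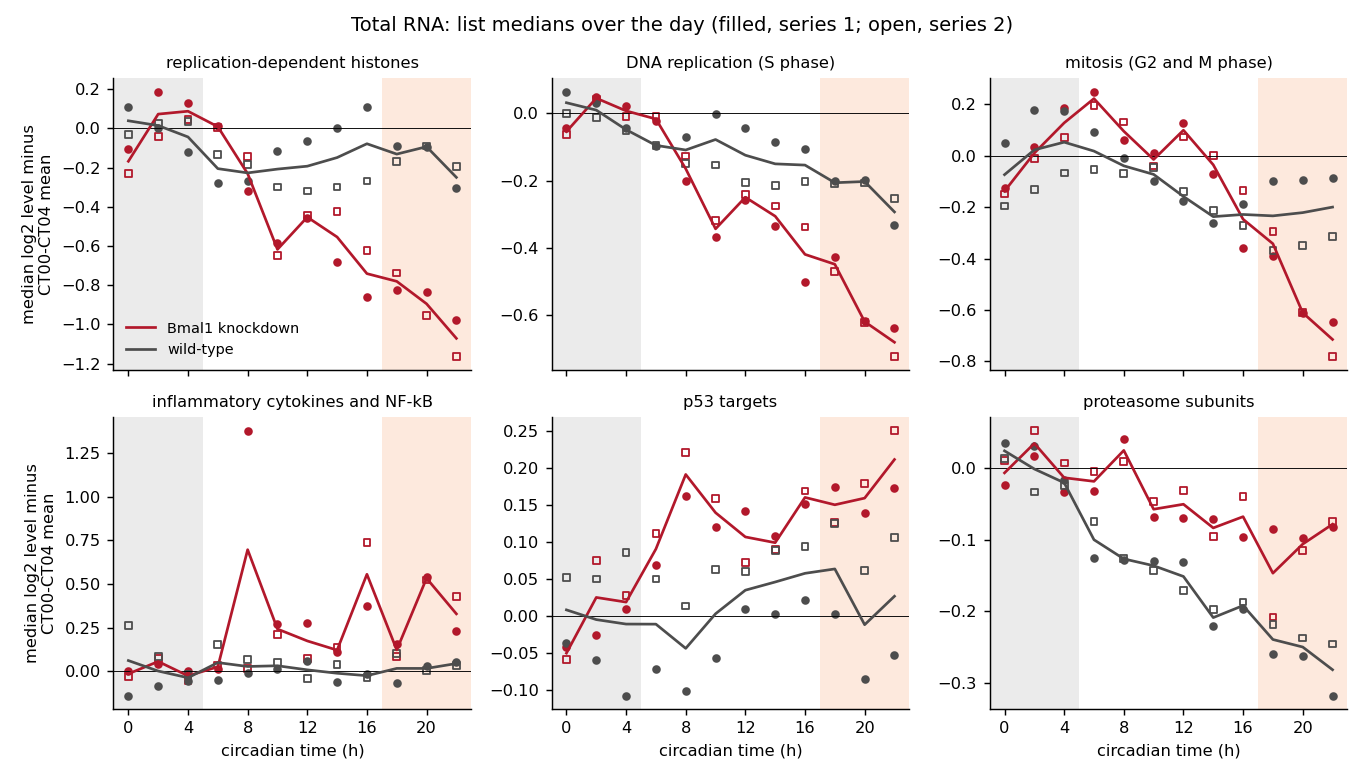
Median log2 level of 6 gene lists in total RNA at the 12 circadian times (h), relative to the mean of CT00 to CT04, for knockdown (red) and wild-type cells (grey); lines are means of the series, symbols are single libraries, and shading marks the late (pink) and early (grey) windows. In knockdown cells histones reach a mean of -1.07 and S phase genes -0.68 at CT22, and mitosis genes stand at 0.22 at CT06 before they reach -0.71 at CT22.

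The courses over the day are given as medians of single libraries, with no test. The knockdown median of histones was 0.01 at CT06, -0.62 at CT10 and -1.07 at CT22, and that of S phase genes -0.02 at CT06, -0.34 at CT10 and -0.68 at CT22. The mitosis median was higher at CT06 (0.22) than at CT00 (-0.14), stood at -0.01 at CT10, and was below 0 in both series from CT16 on, ending at -0.71. At CT22 the medians of series 1 and series 2 were -0.98 and -1.16 for histones, -0.64 and -0.72 for S phase genes and -0.65 and -0.78 for mitosis genes. The library of series 2 at CT14 was also shallow.

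Genes that decide entry into the cycle split. Of 21 G1 cyclins, CDKs and E2F genes, 12 fell and 3 rose (median -0.26), beside 15.2% of all genes lower and 14.4% higher. E2F2, an activating E2F, had 11.7 CPM late (8.7 to 16.2) against 25.4 CPM early (23.3 to 26.7) (-1.08 ± 0.11, adjusted p = 1.66e-06), and CDC25A, the phosphatase that switches on CDK2, had 51.2 CPM late (45.1 to 56.9) against 104 CPM early (94 to 110.3) (-1.01 ± 0.06, adjusted p = 9.25e-09). CCNE2, cyclin E2, had 14 CPM late (10.4 to 16.9) against 26.3 CPM early (21.5 to 27.6) (-0.84 ± 0.10); in these 3 genes no late library reached an early one. E2F8, a repressive E2F, changed by -0.81 ± 0.21 with all 12 libraries and by -1.01 without the shallow one, in which it was highest. The 3 that rose, named after their values were seen, were CCND1 (cyclin D1), with 300.3 CPM late (273 to 335) against 188 CPM early (169.6 to 206) (0.69 ± 0.06, adjusted p = 1.8e-07), CCND2 (cyclin D2; 0.21 ± 0.04) and CDKN1A, the CDK inhibitor p21 (0.25 ± 0.05). All 3 had every late library above every early one.

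Promoters of the histone, S phase and mitosis lists are described because elements of these groups are known. The list shares cover every tested member with a matched window, whether it fell or not. RefSeq (GRCh38.p14) windows from 250 bases before to 50 after the start were matched for 10405 of the 13058 tested genes. On either strand, the E2F letters TTTNNCGC, where N is any base, were in 21 of 35 S phase windows (60%), in 10.6% of the tested genes and in 6.9% of all 27305 windows; the CHR letters TTTGAA were in 32 of 44 mitosis windows (72.7%), 9.8% of the tested genes and 15.4% of all; and the octamer ATTTGCAT was in 6 of 11 histone windows (54.5%), 1.27% of the tested genes and 1.8% of all. The E2F letters were in 5 of 44 mitosis windows (11.4%) and the CHR letters in 1 of 35 S phase windows (2.86%), while the histone windows held the E2F letters in 4 of 11 (36.4%) and the CHR letters in 2 of 11 (18.2%). Over all genes lower late the shares were 15.4% for the E2F letters and 15.4% for the CHR letters, and over all genes higher late 8.07% and 6.71%. A match is a description of the letters, not a measured site. The windows of HIST1H2BJ (current symbol H2BC11; chr6:27132746-27133045, minus strand), CDC25A (chr3:48188368-48188667, minus strand), CDC6 (chr17:40287629-40287928, plus strand), E2F2 (chr1:23531184-23531483, minus strand), CDK1 (chr10:60778081-60778380, plus strand) and HMMR (chr5:163460382-163460681, plus strand) are printed on the strand of the gene, with the octamer (HIST1H2BJ), the E2F letters (CDC25A, CDC6 and E2F2, where a pair of matches overlap) or the CHR letters (CDK1 and HMMR) in capitals; they were picked from named genes because they hold the letters.
HIST1H2BJ: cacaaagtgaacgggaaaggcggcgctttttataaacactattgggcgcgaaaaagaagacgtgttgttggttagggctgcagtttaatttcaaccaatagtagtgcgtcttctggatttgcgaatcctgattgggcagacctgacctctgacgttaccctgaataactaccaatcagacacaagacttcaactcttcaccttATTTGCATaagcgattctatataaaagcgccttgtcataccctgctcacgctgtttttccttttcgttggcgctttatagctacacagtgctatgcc
CDC25A: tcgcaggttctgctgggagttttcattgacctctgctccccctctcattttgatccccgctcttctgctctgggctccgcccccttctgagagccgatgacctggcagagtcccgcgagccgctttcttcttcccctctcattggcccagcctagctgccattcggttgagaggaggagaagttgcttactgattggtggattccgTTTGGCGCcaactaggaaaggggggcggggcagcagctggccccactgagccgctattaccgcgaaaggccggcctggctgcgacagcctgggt
CDC6: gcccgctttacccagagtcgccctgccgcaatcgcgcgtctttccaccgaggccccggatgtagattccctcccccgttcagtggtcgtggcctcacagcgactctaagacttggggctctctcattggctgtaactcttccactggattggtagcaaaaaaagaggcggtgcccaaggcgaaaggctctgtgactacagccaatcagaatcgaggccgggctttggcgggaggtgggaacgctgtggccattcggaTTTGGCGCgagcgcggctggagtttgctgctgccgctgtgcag
E2F2: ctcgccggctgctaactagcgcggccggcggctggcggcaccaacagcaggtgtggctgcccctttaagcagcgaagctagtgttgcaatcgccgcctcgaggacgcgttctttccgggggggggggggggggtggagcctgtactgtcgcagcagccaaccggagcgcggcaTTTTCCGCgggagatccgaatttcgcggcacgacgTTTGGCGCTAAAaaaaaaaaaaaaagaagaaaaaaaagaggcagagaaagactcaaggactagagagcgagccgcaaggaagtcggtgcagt
CDK1: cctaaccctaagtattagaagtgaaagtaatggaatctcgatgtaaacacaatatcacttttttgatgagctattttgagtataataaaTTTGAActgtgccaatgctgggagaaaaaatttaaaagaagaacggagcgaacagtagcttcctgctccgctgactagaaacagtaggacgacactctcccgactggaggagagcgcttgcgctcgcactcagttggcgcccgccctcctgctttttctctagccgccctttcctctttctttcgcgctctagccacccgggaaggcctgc
HMMR: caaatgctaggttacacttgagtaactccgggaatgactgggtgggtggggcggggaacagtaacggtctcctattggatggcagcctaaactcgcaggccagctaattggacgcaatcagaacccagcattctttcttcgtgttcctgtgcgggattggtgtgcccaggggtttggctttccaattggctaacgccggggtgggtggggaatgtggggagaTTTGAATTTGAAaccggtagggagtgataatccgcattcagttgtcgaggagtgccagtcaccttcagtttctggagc

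**Figure D2:**
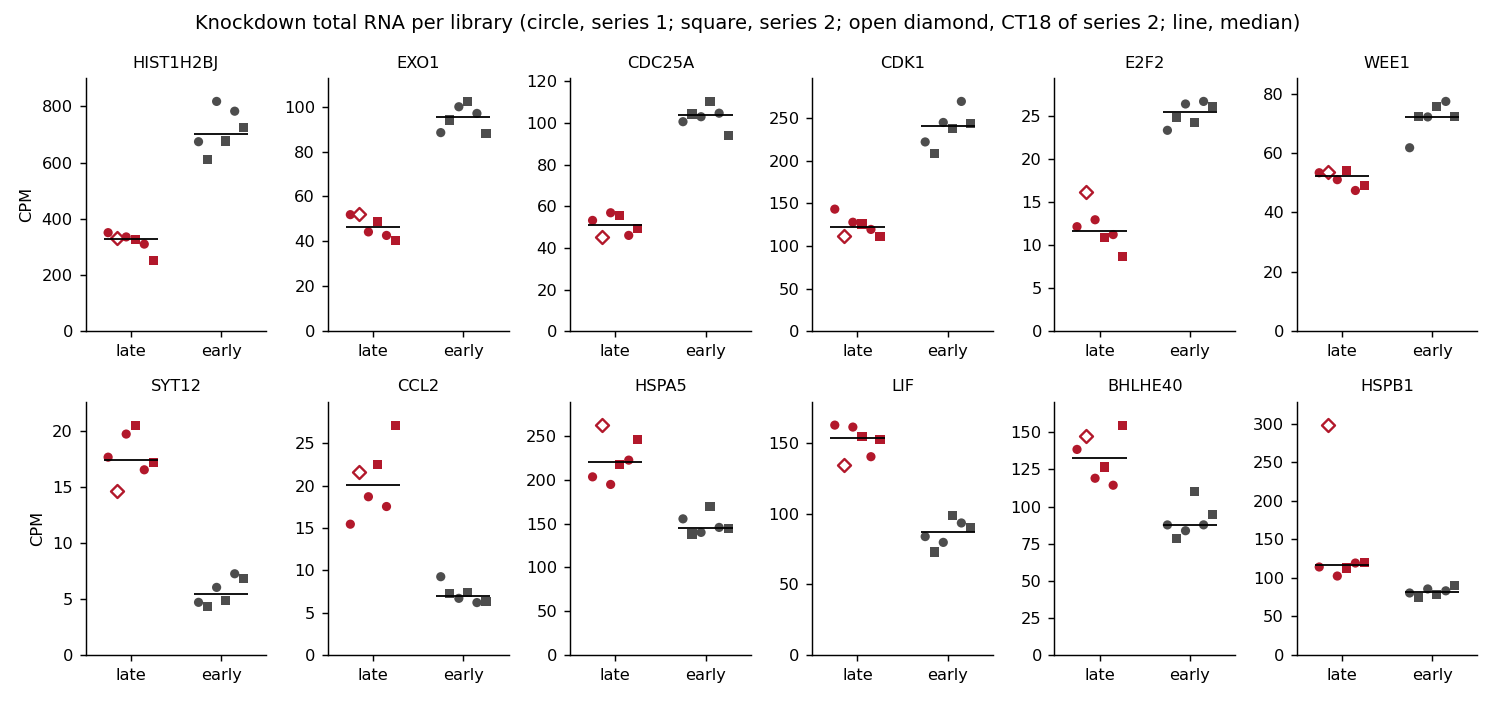
CPM of 12 genes in knockdown total RNA, late libraries (red) left of early ones (grey); each symbol is 1 library, ordered by time, the open diamond is the shallow CT18 library of series 2, and lines are medians. HIST1H2BJ, EXO1, CDC25A, CDK1, E2F2 and WEE1 lie lower late and SYT12, CCL2, HSPA5, LIF and BHLHE40 higher late with no overlap, while HSPB1 has 1 late library at 298 CPM and 5 between 102 and 120.2 CPM.

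Among genes called with and without the shallow library whose windows did not overlap, the largest rises included secreted and signalling genes. SYT12, a synaptotagmin, had a median of 17.4 CPM in the late libraries (range 14.6 to 20.5) and 5.45 CPM in the early ones (4.31 to 7.24), a change of 1.62 ± 0.12 (adjusted p = 1.21e-07). CCL2, a chemokine for monocytes, had 20.1 CPM late (15.4 to 27.1) against 6.97 CPM early (6.18 to 9.24) (1.47 ± 0.13, adjusted p = 3.72e-07), and CSF2, the cytokine GM-CSF, had 4.69 CPM late (2.7 to 5.28) against 1.33 CPM early (0.985 to 2.0) (1.44 ± 0.19, adjusted p = 2.44e-05). By the naming rule each of these 12 largest rises has every late library above every early one. IGFBP5, which binds insulin-like growth factors, had 18.6 CPM late (15.2 to 25.8) against 8.0 CPM early (7.39 to 9.96) (1.18 ± 0.11), and HR, a nuclear corepressor, had 74.1 CPM late (64.9 to 84.3) against 34.9 CPM early (26.4 to 41.7) (1.1 ± 0.09). INPP5D, an inositol phosphatase, had 18.5 CPM late (14.7 to 27.3) against 9.1 CPM early (6.59 to 10.0) (1.14 ± 0.14). The other rises were in KCNA1, a potassium channel (1.35 ± 0.20), the interferon-induced OASL (1.24 ± 0.17), ARHGAP25 (1.20 ± 0.19), APOL1, an apolipoprotein (1.16 ± 0.22), METTL7B (1.16 ± 0.13) and DQ580909, an identifier to which the files give no gene name (1.09 ± 0.16). Late medians of the 12 ran from 2.96 CPM (METTL7B) to 74.1 CPM (HR). The rises of SYT12, CSF2, APOL1, INPP5D and DQ580909 differed from the wild-type change at an adjusted p of 0.05. Those of CCL2, KCNA1, OASL, ARHGAP25, IGFBP5, METTL7B and HR did not. Knockdown minus wild-type change was negative for OASL (-0.53), IGFBP5 (-0.27) and HR (-0.30) and positive for the others. METTL7B and DQ580909 had as few as 6 reads in a late library and CSF2 as few as 7, and the pseudocount of 0.25 CPM understates the fold of such low genes.

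The remaining large falls were outside the cell cycle. MMP3, a matrix protease, had 31.2 CPM late (20.0 to 38.9) against 64 CPM early (44.3 to 85.5) (-1.08 ± 0.18, adjusted p = 5.7e-04), and carbonic anhydrase CA2 had 6.58 CPM late (5.84 to 7.25) against 13.8 CPM early (11.9 to 15) (-1.05 ± 0.08). GABRB2, a GABA receptor subunit, had 1.39 CPM late (0.385 to 1.82) against 2.96 CPM early (2.09 to 3.39), its lowest value coming from the shallow library, with changes of -1.08 ± 0.24 in all libraries and -0.84 without that one.

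Of 16 inflammatory and NF-kB genes, 9 rose and none fell (median 0.32), beside 14.4% of all genes higher and 15.2% lower. LIF, an interleukin-6 family cytokine, had 154 CPM late (135 to 163) against 87.1 CPM early (73 to 98.9) (0.81 ± 0.07, adjusted p = 4.07e-07), and RELB, an NF-kB subunit, had 35.6 CPM late (28.5 to 38.6) against 24.2 CPM early (20.4 to 25.5) (0.56 ± 0.08, adjusted p = 7.0e-05); neither overlapped between windows. The list median was uneven in time, at 0.12 at CT18, 0.53 at CT20 and 0.33 at CT22, and 1.38 in the series 1 library at CT08 but 0.01 in that of series 2. Of 17 immediate early genes, which growth factors and stress switch on within minutes, 9 rose and 1 fell (median 0.28), beside the same shares. Without the shallow library 10 rose and 2 fell, beside 18.8% of all genes higher and 18.5% lower. JUNB, an AP-1 subunit, had 42.3 CPM late (34.9 to 46.6) against 24.4 CPM early (19.1 to 31.8) (0.79 ± 0.11), and IER3 and IER2, short-lived response genes, changed by 0.53 ± 0.11 and 0.51 ± 0.07. FOS, the partner of JUN in AP-1, had 5.25 CPM late (3.88 to 14.2) against 3.48 CPM early (2.83 to 4.83) (0.75 ± 0.25, adjusted p = 0.0338); its top value is the shallow library, and without it the change was 0.51 (adjusted p = 0.00944).

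Of 22 p53 target genes 11 rose and none fell (median 0.15), beside 14.4% of all genes higher and 15.2% lower. Without the shallow library 14 rose and 1 fell, beside 18.8% of all genes higher and 18.5% lower. GDF15, a secreted stress cytokine, had 3.33 CPM late (3.02 to 4.1) against 1.6 CPM early (1.31 to 2.09) (0.99 ± 0.13, adjusted p = 2.9e-05). FDXR, ferredoxin reductase, had 405 CPM late (359 to 447) against 306 CPM early (281 to 345) (0.40 ± 0.06), and TP53INP1 and the kinase PLK3 changed by 0.42 ± 0.06 and 0.36 ± 0.06. Of 19 growth arrest and FOXO targets 7 rose and 2 fell with all libraries (median 0.19), beside 14.4% of all genes higher and 15.2% lower. PIK3IP1, an inhibitor of PI3 kinase, had 37.4 CPM late (30.1 to 51) against 18.7 CPM early (15.9 to 21.9) (1.03 ± 0.12, adjusted p = 1.37e-05), SESN3, a restraint on mTORC1, had 84.4 CPM late (70.0 to 100.2) against 49.1 CPM early (43.9 to 51) (0.81 ± 0.07), and FBXO32 and PDGFRB changed by 0.73 ± 0.12 and 0.55 ± 0.09. Late and early libraries overlapped for PLK3 and FBXO32 but not for the others named here.

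Matrix genes rose in 18 of 30 and fell in none (median 0.21), beside 14.4% of all genes higher and 15.2% lower. LOXL4, which crosslinks collagen, had 145 CPM late (129 to 177) against 82.7 CPM early (68.1 to 97.3) (0.84 ± 0.09, adjusted p = 6.05e-06), the adhesive glycoprotein THBS1 had 500.4 CPM late (426 to 584) against 293 CPM early (259.9 to 388) (0.71 ± 0.11), and COL5A1 had 167 CPM late (149 to 177) against 118 CPM early (102 to 126) (0.51 ± 0.05). COL1A1 had 192 CPM late (166 to 376) against 146 CPM early (129 to 181), where the 376 CPM is the shallow library; its change was 0.51 ± 0.16 with it and 0.34 without it (adjusted p = 0.00228). Among 22 chaperones of the endoplasmic reticulum 8 rose and 1 fell, beside the same shares over all genes. HSPA5 (BiP), the chief of them, had 219.9 CPM late (195 to 263) against 145 CPM early (138 to 169.7) (0.59 ± 0.07, adjusted p = 1.21e-05), and HERPUD1, of the degradation machinery, had 87 CPM late (79.2 to 94.7) against 57 CPM early (52.4 to 62.3) (0.58 ± 0.05, adjusted p = 8.67e-07).

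Smaller falls were seen in lists of protein and redox upkeep. Of 20 NRF2 antioxidant genes 12 fell and 1 rose (median -0.19), beside 15.2% of all genes lower and 14.4% higher. TXNRD1, thioredoxin reductase, had 439 CPM late (349 to 478) against 616 CPM early (561 to 693) (-0.53 ± 0.07), thioredoxin TXN had 202 CPM late (168 to 207) against 256 CPM early (233 to 276) (-0.37 ± 0.05), and the cystine carrier SLC7A11 changed by -0.70 ± 0.16; ABCC3, an efflux pump, was the riser (0.42 ± 0.11). Of 31 proteasome subunits 10 fell and none rose (median -0.10), beside the same shares (16 fell without the shallow library, beside 18.5% of all genes). PSMD2, of the regulatory particle, had 1228 CPM late (1056 to 1283) against 1550.4 CPM early (1525 to 1646) (-0.38 ± 0.04), and PSMD11 changed by -0.29 ± 0.04. Aminoacyl-tRNA synthetases fell in 8 of 20 and rose in 1, with EPRS at -0.22 ± 0.05 and MARS at -0.18 ± 0.03, beside 15.2% of all genes lower. Mitochondrial ribosomal proteins fell in 15 of 55 and rose in 2, beside 15.2% of all genes lower and 14.4% higher. Their median was -0.10, and without the shallow library 21 fell, beside 18.5% of all genes. In wild-type cells 31 of the 55 fell, beside 18.6% of all genes lower. Of 76 cytosolic ribosomal proteins 6 rose and none fell with all libraries (median 0.03), beside 14.4% of all genes higher. Without the shallow library 16 rose (median 0.06), beside 18.8% of all genes higher. In wild-type cells 27 of the 76 rose and 2 fell (median 0.13), beside 18.2% of all genes higher.

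Of 4 clock activators and 16 repressors and outputs tested, 2 rose and 3 fell, beside 29.6% of all genes called. NR1D2 (REV-ERB beta), a BMAL1 target and repressor, had 19.9 CPM late (15.6 to 21.2) against 24.9 CPM early (23.7 to 28.3) (-0.37 ± 0.07, adjusted p = 0.00101), and ARNTL2, the paralog of BMAL1, had 146 CPM late (129 to 166) against 195 CPM early (185 to 200.4) (-0.42 ± 0.05, adjusted p = 1.14e-05). WEE1, the kinase that holds CDK1 inactive, had 52.2 CPM late (47.4 to 54) against 72.2 CPM early (61.8 to 77.4) (-0.48 ± 0.06, adjusted p = 7.14e-06). BHLHE40, an E-box repressor, had 133 CPM late (114 to 155) against 87.6 CPM early (78.6 to 110.3) (0.56 ± 0.09, adjusted p = 1.63e-04). Windows did not overlap in these 4. BHLHE41, its relative, had 7.63 CPM late (3.44 to 11.6) against 4.51 CPM early (2.5 to 5.36), passing with all libraries (0.72 ± 0.26, adjusted p = 0.049) and not without the shallow one (0.58, adjusted p = 0.115).

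The other 15 clock genes did not pass. Their log2 changes were 0.18 ± 0.12 for ARNTL, 0.08 ± 0.04 for CLOCK, 0.24 ± 0.16 for NPAS2, 0.16 ± 0.14 for PER1, 0.18 ± 0.07 for PER2 and -0.19 ± 0.09 for PER3. The cryptochromes CRY1 and CRY2 gave -0.13 ± 0.06 and -0.01 ± 0.05, and the receptors RORA and RORB -0.09 ± 0.08 and 0.08 ± 0.17. The outputs DBP, TEF, HLF and NFIL3 gave 0.30 ± 0.17, -0.02 ± 0.06, -0.02 ± 0.25 and -0.12 ± 0.05. NR1D1 (0.32 ± 0.31) had medians of 0.742 CPM late and 0.626 CPM early, and overlaps its antisense neighbour THRA, which leaves its counts uncertain. PER2 and PER3 passed without the shallow library, at 0.19 (adjusted p = 0.0287) and -0.26 (adjusted p = 0.00513). PER1 was at 68.5 CPM in that library and 32.6 to 39.2 CPM in the other late ones.

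**Figure D3:**
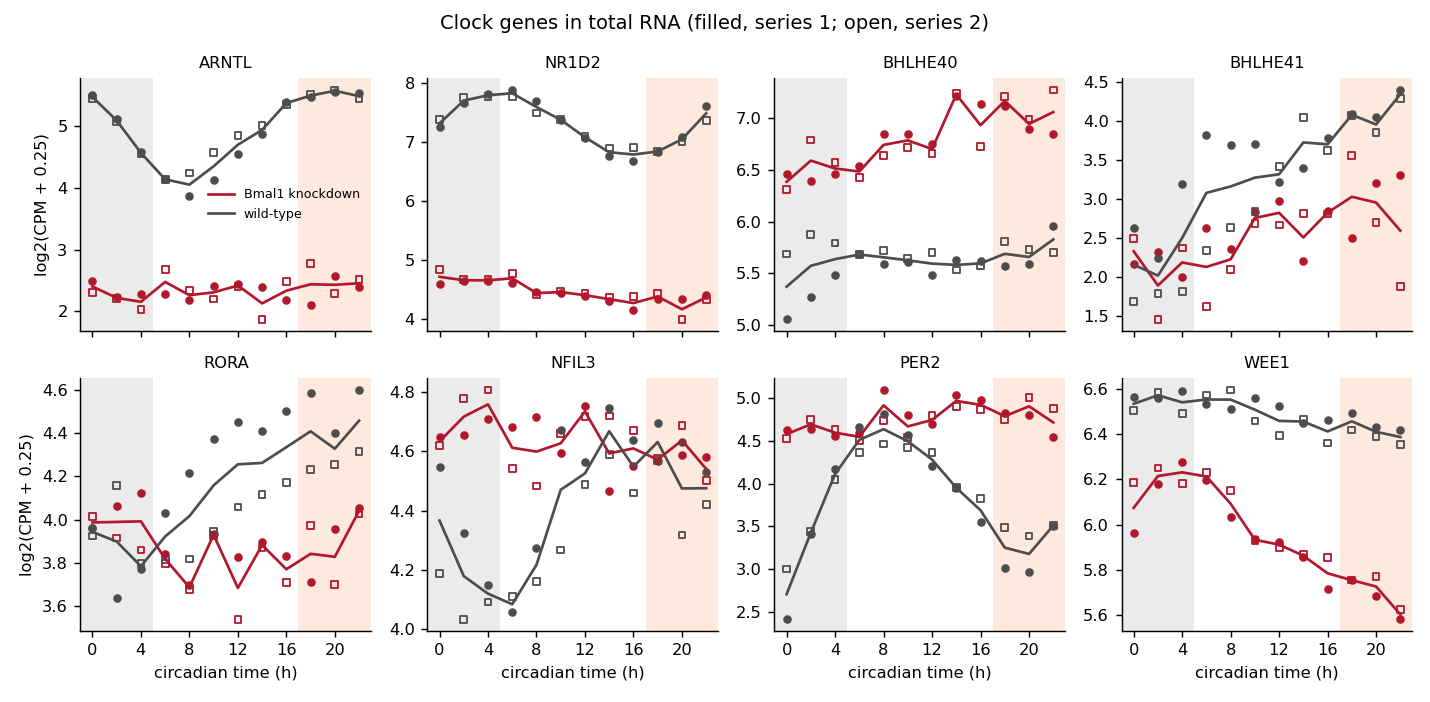
log2(CPM + 0.25) of 8 clock genes in total RNA at 12 circadian times (h), knockdown in red and wild-type in grey; lines are means, filled symbols series 1, open symbols series 2, with the late window shaded pink and the early one grey. In knockdown cells WEE1 and NR1D2 lie lower late and BHLHE40 higher late; the RORA and NFIL3 changes of wild-type cells (0.53 and 0.32) have no counterpart past the threshold in knockdown cells (-0.09 and -0.12).

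Footprints of the same windows, separate libraries that share time and series number with the RNA, moved with the RNA. Of 10987 genes tested 2295 passed (20.9%), 1106 higher (10.1%) and 1189 lower (10.8%). Of the 3483 RNA calls that were tested in footprints, 1794 (51.5%) were called there in the same direction, which is 78.2% of the 2294 footprint calls tested in RNA, and 0 in the opposite one; at this depth a lost call says little. The log2 changes correlated at r = 0.84 across 10963 genes, which come from the same libraries and are not independent. S phase genes fell in 38 of 42 (median -0.62), mitosis genes in 45 of 53 (-0.71) and histones in 11 of 12 (-0.85), and none of these rose. CDK1 footprints had 226 CPM late (177 to 254) against 432 CPM early (350.3 to 495) (-0.96 ± 0.10, adjusted p = 1.38e-06), and EXO1 footprints 21.1 CPM late (18.8 to 25.5) against 48.3 CPM early (45.3 to 52.6) (-1.18 ± 0.09, adjusted p = 2.33e-10). SYT12 had 14.7 CPM late (11.9 to 17.2) against 2.49 CPM early (0.777 to 7.18) (2.48 ± 0.41), CCL2 30.9 CPM late (27 to 50.7) against 12.2 CPM early (10.6 to 14.2) (1.47 ± 0.14) and HSPA5 899 CPM late (828 to 988) against 644 CPM early (623 to 759) (0.46 ± 0.05). In these 5 genes the direction was that of the RNA. Matrix genes rose in 17 of 28 tested, p53 targets in 11 of 22 and immediate early genes in 10 of 17, with none lower. Footprints of NR1D2 changed by -0.62, WEE1 by -0.69, BHLHE40 by 0.46 and BHLHE41 by 1.02.

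**Figure D4:**
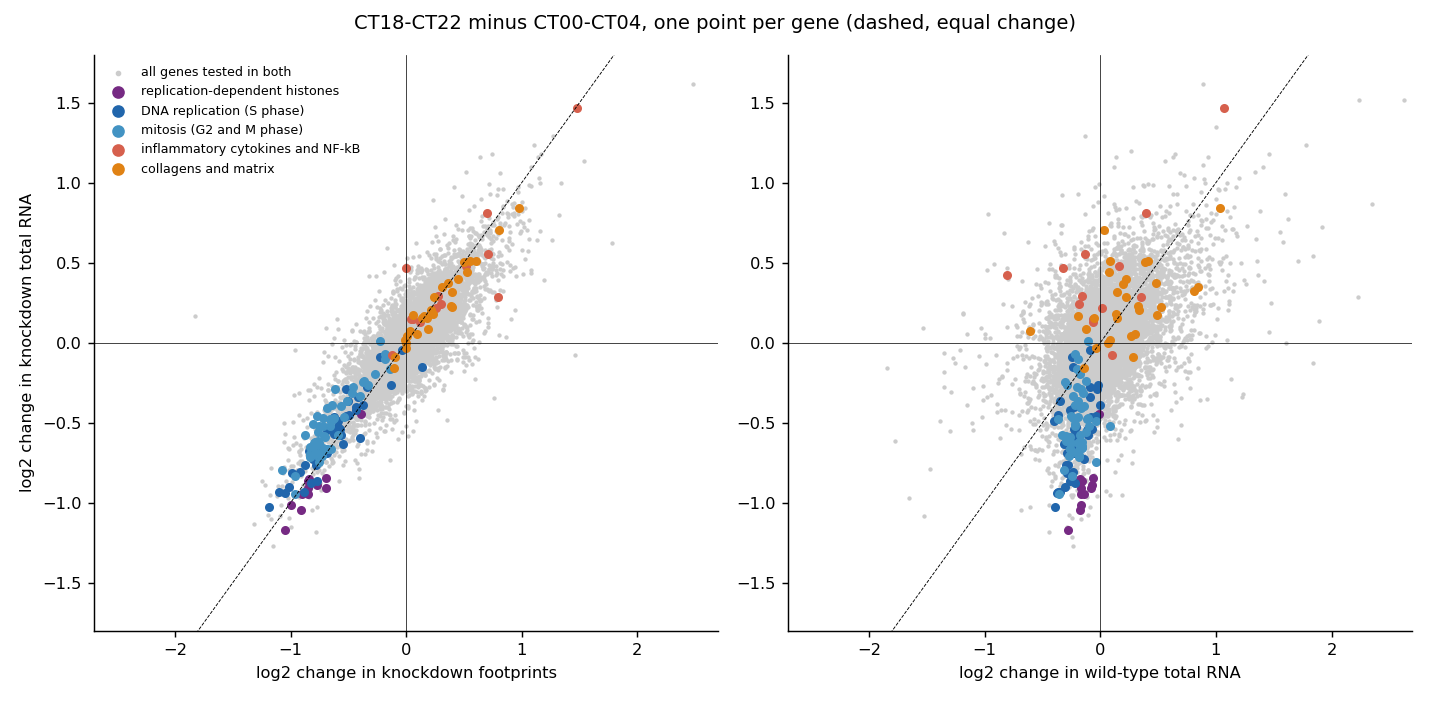
log2 change from early to late of each gene in knockdown total RNA (vertical) against knockdown footprints (left) or wild-type total RNA (right), with members of 5 lists coloured and the dashed line marking equal change; 1 gene of the right panel falls outside the axes. Against footprints, the medians of histones (-0.91 in RNA, -0.85 in footprints) and S phase genes (-0.59 and -0.62) lie near the line. The mitosis median is -0.52 in RNA and -0.71 in footprints. In wild-type RNA the medians of histones, S phase and mitosis genes are -0.16, -0.23 and -0.20, beside -0.91, -0.59 and -0.52 in knockdown RNA.

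Wild-type cells drifted too, but not in the same genes throughout. In them 4791 of 13019 genes passed (36.8%), 2374 higher (18.2%) and 2417 lower (18.6%). Of the 3818 knockdown calls tested there, 1828 (47.9%, or 38.6% of the 4735 wild-type calls tested in knockdown cells) were called in the same direction and 137 in the opposite one, and the log2 changes correlated at r = 0.49 across 12789 genes. Tested as knockdown change minus wild-type change, 1941 of 13402 genes differed (14.5%), 934 with a positive difference (6.97%) and 1007 with a negative one (7.51%). Wild-type libraries of a series deviate together, and with the series as a block 2847 genes differed, 1454 positive and 1393 negative. With 1 mean per series and window 82 genes differed without the block and 1417 with it.

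Many division genes fell further in knockdown cells than in wild-type cells. The difference was negative and past the threshold in 30 of 42 S phase genes, 23 of 53 mitosis genes and 11 of 12 histones, and positive in none, beside 7.51% over all genes. The list medians late minus early were -0.59 in knockdown and -0.23 in wild-type cells for S phase, -0.52 and -0.20 for mitosis, and -0.91 and -0.16 for histones. For CDK1 the wild-type values were 287 CPM late (260.4 to 331) against 375 CPM early (333 to 410.3) (-0.36 ± 0.07), and the difference was -0.57 ± 0.10 (adjusted p = 5.14e-04). For HIST1H2BJ wild-type values were 984 CPM late (849 to 1048) against 1222 CPM early (1007 to 1264) (-0.28 ± 0.06), with a difference of -0.88 ± 0.11 (adjusted p = 4.11e-06), and for ESCO2 the difference was -0.85 ± 0.09. CCND1 was 333 CPM late (313 to 366) against 329 CPM early (284 to 365) in wild-type cells (0.05 ± 0.07), and its rise differed by 0.66 ± 0.09 (adjusted p = 2.69e-05). In wild-type cells the windows overlapped for HIST1H2BJ and CCND1 but not for CDK1; in knockdown cells they overlapped for none of the 3.

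**Figure D5:**
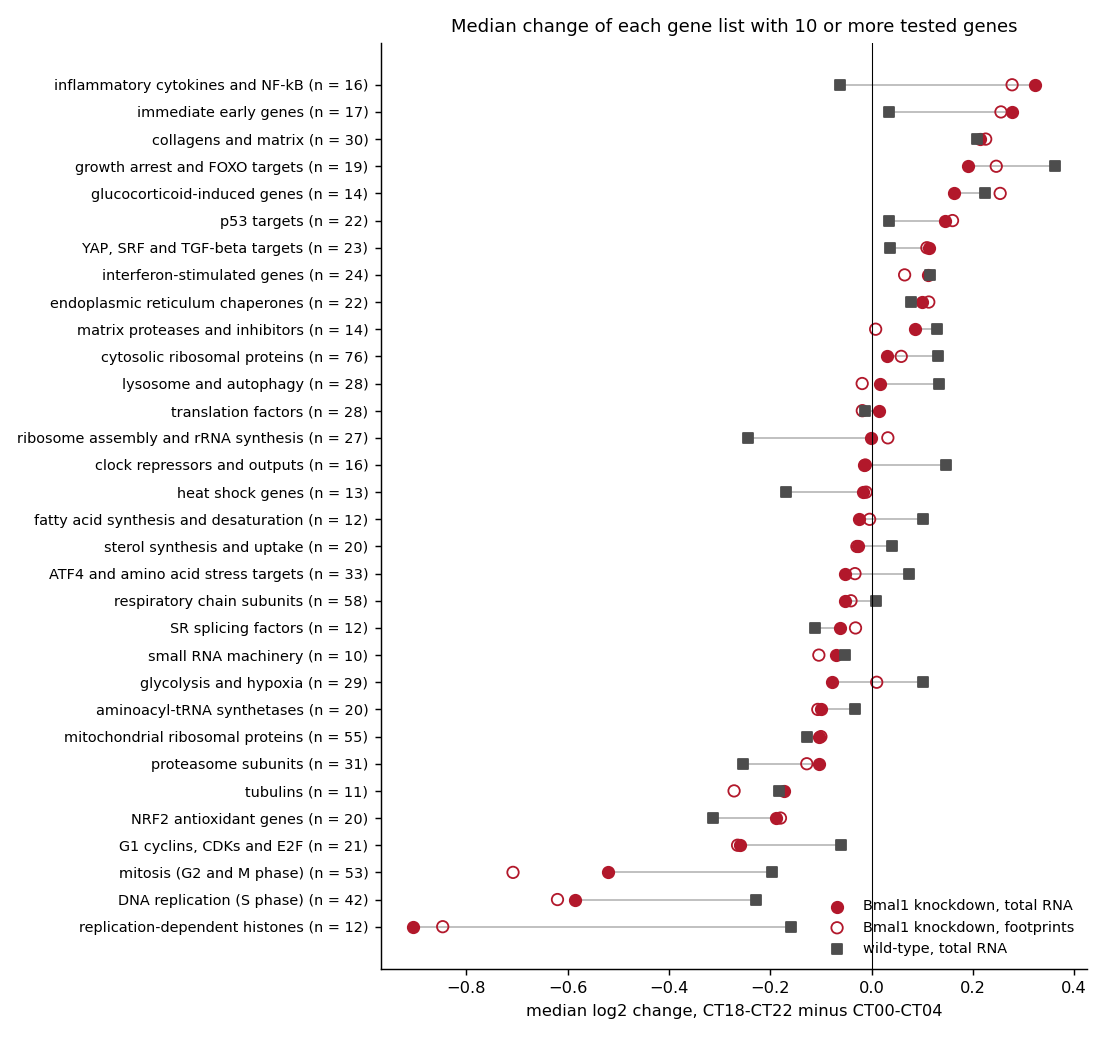
Median log2 change, late minus early, of each gene list with 10 or more tested genes in knockdown total RNA (filled red), knockdown footprints (open red) and wild-type total RNA (grey squares), with n the genes tested in knockdown RNA; grey lines join the total RNA medians. Histones, S phase and mitosis stand lowest in knockdown cells (-0.91, -0.59 and -0.52), and ribosome assembly genes stand near 0 in knockdown cells and at -0.24 in wild-type cells.

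Some groups drifted more in wild-type cells. Calls were also more common there, with 18.2% of all genes higher and 18.6% lower, beside 14.4% and 15.2% in knockdown cells. Ribosome assembly and rRNA synthesis genes fell in 20 of 27 in wild-type cells (median -0.24). In knockdown cells 4 of 27 fell and 2 rose (median near 0), beside 15.2% of all genes lower and 14.4% higher. With the shallow library left out 6 rose and 4 fell, beside 18.8% of all genes higher and 18.5% lower. The difference was positive in 15 and negative in none, beside 6.97% of all genes positive and 7.51% negative. RRS1, a ribosome assembly factor, rose in knockdown cells (0.28 ± 0.07) and had -0.36 ± 0.14 in wild-type cells (adjusted p = 0.062), a difference of 0.65 ± 0.16 (adjusted p = 0.00822), and MYC, a driver of ribosome making, changed by 0.27 ± 0.08 and -0.28 ± 0.09, a difference of 0.57 ± 0.13 (adjusted p = 0.00357). NOP56, of the nucleolar methylation particle, fell in both, with log2 changes of -0.22 in knockdown and -0.33 in wild-type cells. Proteasome subunits fell in 29 of 31 wild-type genes (median -0.25), and the difference was positive in 8 of 31, PSMD2 among them (0.27 ± 0.06). Growth arrest and FOXO targets rose in 14 of 19 in wild-type cells (median 0.36) and in 7 of 19 in knockdown cells (median 0.19). Their difference was positive in 2 and negative in 5. NRF2 antioxidant genes fell in 13 of 20 in wild-type cells (median -0.31) and in 12 of 20 in knockdown cells (median -0.19). Their difference was positive in 3 and negative in none, and its median over the 20 genes was near 0 (0.0006). The gap between the list medians is thus not that of the typical member. Collagens and matrix genes had a median of 0.21 in knockdown and 0.21 in wild-type cells, with a positive difference in 4 and a negative one in 5 of 30, beside the same 6.97% and 7.51%. THBS1 differed (0.68 ± 0.19; 0.04 in wild-type cells), as did HSPA5 (0.77 ± 0.10; -0.17), LIF (0.42 ± 0.08; 0.40) and RELB (0.70 ± 0.17; -0.13).

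The largest differences between the drifts were in single genes. DIO2, which activates thyroid hormone, had 74.2 CPM late (59.3 to 87.4) against 41.3 CPM early (38 to 46.8) in knockdown cells and 2.42 CPM late (1.82 to 4.08) against 5.63 CPM early (3.88 to 7.22) in wild-type cells, a change of 0.80 and -0.97 and a difference of 1.79 ± 0.25 (adjusted p = 3.11e-05). CCDC147 had 54 CPM late (47 to 58.6) against 39.8 CPM early (30.1 to 43.9) in knockdown and 9.78 CPM late (8.92 to 10.7) against 18.9 CPM early (18 to 19.9) in wild-type cells, a difference of 1.43 ± 0.11 (adjusted p = 1.67e-09). TRAF1, an NF-kB-induced adaptor, had 12.4 CPM late (9.63 to 16.4) against 7.73 CPM early (6.06 to 10.0) in knockdown and 0.661 CPM late (0.395 to 0.944) against 1.28 CPM early (0.69 to 2.56) in wild-type cells, a difference of 1.53 ± 0.32. These 3 rose in knockdown and fell in wild-type cells. For C6orf99 (1.69 ± 0.26) and SP140, a nuclear body protein (1.64 ± 0.49), the wild-type change was -1.84 and -1.53 while the knockdown change did not pass (-0.16 and 0.09). FOSL1, an AP-1 subunit, differed by 1.45 ± 0.40, with 38.9 CPM in the shallow library and 10.2 to 13.6 CPM in the other late ones; without that library the difference was 1.17.

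On the negative side SEPP1, the selenium carrier selenoprotein P, had 3.64 CPM late (2.25 to 9.79) against 1.01 CPM early (0.257 to 2.34) in knockdown and 30.2 CPM late (27.4 to 53.9) against 1.77 CPM early (1.44 to 5.0) in wild-type cells, so it rose in both and differed by -2.12 ± 0.53 (adjusted p = 0.00912, and 0.0574 with series means and block). BMF, a cell death inducer of the BCL2 family, did not pass in knockdown cells (0.28 ± 0.31) and rose in wild-type cells (2.23 ± 0.31), a difference of -1.94 ± 0.47. The phosphatase PTP4A3 (-1.60 ± 0.31), the integrin ITGB3 (-1.56 ± 0.32) and the aldolase ALDOC (-1.54 ± 0.28) rose in wild-type cells, by 1.61, 1.23 and 1.23, and did not pass in knockdown cells. FOXS1, a forkhead gene, rose in both and differed by -1.48 ± 0.46. Among clock genes the difference was past the threshold for RORA (-0.61 ± 0.12), NFIL3 (-0.42 ± 0.10), WEE1 (-0.35 ± 0.06) and BHLHE41 (-1.18 ± 0.37), all negative.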

How the data were processed

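Total RNA and ribosome footprints of U2-OS cells had been sequenced, and the deposited values are a normalised signal per gene: the authors' read counts after scaling, each library having 1 scaling factor. Per the submitters' processing notes, STAR 2.3.0e, HTSeq 0.5.4p1 and DESeq2 were used with GRCh37/hg19. The labels name a stranded total RNA kit; whether counting used strand is not given in the sources used here. All deposited values are whole multiples of 1 step per library within 0.001, so whole reads were recovered. Samples were grouped by label, and no column of other samples was left out.

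The recovered counts were scaled by TMM (edgeR 4.0.16) to CPM, filtered at a minimum count of 10 (filterByExpr) and tested as log2(CPM + 0.25) with limma 3.58.1 (trend, robust; R 4.3.3), late minus early, 6 libraries against 6, with Benjamini-Hochberg adjustment over all tested genes at 0.05. Knockdown and wild-type drifts were compared by an interaction in 1 model. The 6 libraries of a window are 3 times in 2 series, treated as independent. The labels do not say that the series are separate cultures, so p-values measure the spread among these samples, which may be technical. The fit was tested on simulated data.

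Named genes were the 12 largest changes each way among genes averaging 1 or more in log2 CPM that were called with and without the shallow library and did not overlap, the 6 largest differences between drifts each way, up to 4 per list, and all clock genes. Members and lists were chosen with earlier results of these data known. Promoter windows come from RefSeq GRCh38.p14. Deviations of same-numbered libraries over 9 pairs of an early and a late time correlated at 0.44 to 0.58 in wild-type cells. In knockdown cells they correlated at -0.12 to 0.35. The main fits took no pairing by series number in either treatment, and the series entered as a block only among the alternatives. Alternatives were other tests (DESeq2 1.42.0 among them), scalings, filters, pseudocounts, windows, blocks and left-out libraries. Some genes are not reported here.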

Additional observations from a re-analysis of the deposited data

Results flagged for a closer look

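Among 232 groups of 6 libraries looked at, 22 had a library far from the other 5, and chance gives about 1 in 20. Of the 22, 13 were the late library of series 2 at CT18, which held 2.56 M reads. Its CPM were 22.3 for HIST1H2AD, 38.9 for FOSL1, 13.9 for NPAS2, 68.5 for PER1, 3.08 for NR1D1 and 1.54 for RORB. They were 14.2 for FOS, 376 for COL1A1, 349 for TXNRD1, 168 for TXN, 298 for HSPB1 and 65.5 for KLF9. Low depth moved with these values, and its part in them was not tested. The other late values were 15.6 CPM for NR1D2 (CT20, series 2) and 73.3 CPM for DDIT4 (CT22, series 1). Early, the CT00 library of series 1 held 13.6 M reads, with PER3 at 36.9 CPM and WEE1 at 61.8 CPM, and that of series 2 had NR1D2 at 28.3 CPM. The CT02 library of series 2 had CRY2 at 49.5 CPM, PLK3 at 60.3 CPM and IER2 at 69.3 CPM.

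The drift differed between knockdown and wild-type cells, in limma's interaction test, in 62 of 115 genes named in the text. As knockdown minus wild-type log2 change, histones gave -1.02 for HIST1H2AD, -0.88 for HIST1H2BJ, -0.84 for HIST1H2AH, -0.85 for HIST1H3H, -0.93 for HIST1H2BN, -0.83 for HIST1H2AG and -0.76 for HIST1H3D. S phase and entry genes gave -0.85 for ESCO2, -0.92 for ZNF367, -0.79 for E2F2, -0.62 for EXO1, -0.55 for CDC25A, -0.56 for CCNE2, -0.55 for MCM10, -0.57 for CDC6 and -0.55 for CDC45. Mitosis genes gave -0.57 for CDK1, -0.58 for NDC80, -0.47 for HMMR and -0.70 for HMGB2. The cyclins CCND1 and CCND2 gave 0.66 and 0.28.

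Positive differences were 0.74 for SYT12, 1.38 for CSF2, 1.04 for APOL1, 0.59 for INPP5D, 1.79 for DIO2, 1.69 for C6orf99, 1.64 for SP140, 1.53 for TRAF1, 1.45 for FOSL1, 1.43 for CCDC147 and 0.92 for DQ580909. Others were 0.25 for FDXR, 0.42 for LIF, 0.70 for RELB, 0.68 for THBS1, 0.77 for HSPA5, 0.42 for HERPUD1, 0.44 for PDGFRB, 1.24 for BIRC3, 0.83 for TAGLN and 0.76 for MMP9, with 0.27 for PSMD2, 0.65 for RRS1 and 0.57 for MYC. Negative ones were -2.12 for SEPP1, -1.94 for BMF, -1.60 for PTP4A3, -1.56 for ITGB3, -1.54 for ALDOC, -1.48 for FOXS1 and -0.96 for GABRB2. Clock genes gave -0.61 for RORA, -0.42 for NFIL3, -1.18 for BHLHE41 and -0.35 for WEE1, and -0.42 for EPRS, -0.15 for TUBA1B, -0.64 for TUBA1A, -0.34 for DICER1 and -0.92 for EGLN3 complete the list.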

How the results depend on the processing

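Counts of genes kept within 1.5 times of the main one under most alternatives, and no called named gene changed direction. The balance of the calls did shift. In knockdown RNA 48.6% of calls were higher in the main fit and 50.4% without the shallow library. For the difference between drifts 48.1% were positive in the main fit and 51.1% with the replicate block. In wild-type RNA 49.6% were higher in the main fit and 78.1% with 1 mean per series and window. Medians of 8 of 39 lists changed sign under at least 1 alternative; for neuronal markers (3 genes) the median was 0.18 and, without the shallow library, -0.08. In knockdown cells the replicate block gave 3878 calls, 1890 higher and 1988 lower, beside 3867 without it. For wild-type RNA, whose libraries of a series deviate together, the block gave 6472 calls, beside 4791 in the main fit. Leaving out 1 library or 1 series gave 766 to 4902 calls in knockdown RNA (299 to 2472 higher, 467 to 2430 lower). It gave 579 to 2494 in knockdown footprints (240 to 1216 higher, 339 to 1297 lower) and 4197 to 5620 in wild-type RNA. For the difference between drifts it gave 664 to 2752 (310 to 1221 positive, 354 to 1537 negative). The lowest counts for knockdown RNA, footprints and the difference are those of series 2 alone. That series holds the shallow CT18 library and leaves 3 libraries a window. In knockdown RNA S phase genes then fell in 33 of 42, mitosis genes in 25 of 53 and histones in 11 of 12. Beside them 467 of all 13128 genes fell. Windows of 2 times gave 1452 footprint calls (669 higher, 783 lower). For the difference, the replicate block gave 1454 positive and 1393 negative calls, no filter on low counts 618 positive ones, and voom with quality weights 3250 calls (1684 and 1566). With 1 mean per series and window, chosen after seeing the data, wild-type calls numbered 210 (164 higher, 46 lower) and difference calls 82 (19 and 63); with the block added they numbered 3906 and 1417. The cause of these shifts was not tested. Of 153 called named genes, 68 kept their call and direction under every alternative run. Of the 62 differences called among genes named here, 57 passed with series means and block, where SEPP1, INPP5D, FDXR, TUBA1B and DQ580909 did not; without the shallow library INPP5D did not (adjusted p = 0.0646). Low-depth footprints limit what a missing call shows.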

Other observations

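Smaller groups held single genes with clear steps. Of 10 genes of the small RNA machinery 4 fell and none rose, beside 15.2% of all genes lower and 14.4% higher. With the shallow library left out 5 fell and 1 rose, beside 18.5% lower and 18.8% higher. DICER1, which cuts microRNA precursors, had 117 CPM late (108 to 125) against 149 CPM early (141 to 169) (-0.38 ± 0.05, adjusted p = 2.12e-05), against -0.03 ± 0.04 in wild-type cells. Of 11 tubulins 4 fell and 1 rose, beside the same 15.2% lower and 14.4% higher (7 fell without the shallow library, beside 18.5% of all genes). TUBA1B fell, with 1357 CPM late (1258 to 1438) against 1766 CPM early (1710.1 to 1801) (-0.38 ± 0.03). TUBA1A rose, with 262 CPM late (242 to 284) against 221 CPM early (207 to 234) (0.24 ± 0.05). Since tubulin genes are close copies their split is uncertain. In wild-type cells TUBA1A rose by 0.90. Among 29 genes of glycolysis and hypoxia 6 rose and 7 fell, beside the same 14.4% higher and 15.2% lower (12 fell without the shallow library, beside 18.5% of all genes). SLC2A3, a glucose carrier, had 57.9 CPM late (52.8 to 60.9) against 41.7 CPM early (39.8 to 48.2) (0.42 ± 0.06). EGLN3, an oxygen-sensing hydroxylase, had 1.81 CPM late (0.77 to 2.22) against 3.27 CPM early (2.41 to 3.57) (-0.81 ± 0.19). EBP, of sterol synthesis, had 42.2 CPM late (37.7 to 47.3) against 52.7 CPM early (52.1 to 57.7) (-0.35 ± 0.06).

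Genes of matrix turnover and stress split in direction. MMP9, a gelatinase, had 4.03 CPM late (3.47 to 4.32) against 6.03 CPM early (5.05 to 6.82) (-0.55 ± 0.09) and SPP1, osteopontin, 28.5 CPM late (24.8 to 32.7) against 44.2 CPM early (31.4 to 51.9) (-0.59 ± 0.11). TAGLN, an actin-binding protein, changed by -0.29 ± 0.08 in knockdown and -1.1 ± 0.05 in wild-type cells. DDIT4, an inhibitor of mTORC1, had 49.4 CPM late (42.7 to 73.3) against 30.3 CPM early (18.9 to 36.5) (0.85 ± 0.17), and BIRC3, an NF-kB-induced survival gene, had 57.4 CPM late (43.9 to 62.7) against 40.7 CPM early (38.7 to 43.4) (0.42 ± 0.07), while it fell in wild-type cells (-0.81 ± 0.19). HSPB1, a small heat shock protein, changed by 0.70 ± 0.22 with all libraries and 0.47 without the shallow one (adjusted p = 1.74e-07). KLF9, a glucocorticoid-induced gene, changed by 0.44 ± 0.08.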
